A study of Oryza sativa Japonica Group with 28 samples.

Results

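The genes described here are the 234 rice genes, of 45990 in the deposited table, whose GO molecular function terms name a protease of one of 3 kinds: 61 cysteine-type peptidases, 118 aspartic-type endopeptidases and 55 serine-type carboxypeptidases. No gene fell into more than 1 class. Cysteine proteases of the papain type, pepsin-like aspartic proteases and serine carboxypeptidases are the main hydrolases of the plant vacuole and cell wall space. They degrade storage proteins in germinating seeds, and they take part in the dismantling of cells that die during development. Serine carboxypeptidases remove residues from the C-terminal end of proteins. In cereal grains the maternal nucellus is broken down while the endosperm grows, and its outermost layer, the nucellar epidermis (NE), persists for longer before it collapses.

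The study profiled grains of the rice cultivar Nipponbare grown in hydroponic culture, with no genotype or agent that differed between groups, and it used laser capture to collect NE, ovular vascular trace (OVT), cross cells (CC) and endosperm (EN). Grains were taken at 3 ages, counted in days after flowering (DAF): 4, 8 and 16 DAF. The aleurone layer (AL) was collected at 16 DAF. The 28 libraries form 13 groups. NE had 3 libraries at each stage, OVT 3, 2 and 1, CC 2, 1 and 2, EN 1, 2 and 2, and AL 3. Each preparation pooled 3 grains, and the groups of 1 library (EN at 4, CC at 8 and OVT at 16 DAF) were described without a test. In cut tissue, fewer cells of a type and less RNA per cell cannot be told apart.

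The MM codes that name the libraries are those of the sample titles. Values are the signal that the authors deposited, which is read number times 1 factor per library. A call means an adjusted p under 0.05 (limma on log2(value + 10), Benjamini-Hochberg over 27486 tested genes), and "higher", "lower", "rose" and "fell" are used for calls. Log2 fold changes are on that log2(value + 10) scale, which understates the change of low genes. Levels of different genes are compared only per kb of gene length. Of the 234 genes, 130 passed the filter on low values (36 cysteine, 59 aspartic and 35 carboxypeptidase genes), and 54 were at 0 in every library. Of the tested members, 60 were called in at least 1 of the 12 comparisons: 14 cysteine, 32 aspartic and 14 carboxypeptidase genes. The same count over all tested genes was not made, so these 60 are a tally and not a result about the members. The deposited table gives the genes identifiers and GO terms but no names.

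Estimated depth ran from 815257 reads (CC at 8 DAF) to 97250199 (NE MM18 at 16 DAF). OsMADS29 (Os02g0170300), a MADS-box transcription factor needed in rice for the breakdown of the nucellus, was used as the NE marker. It read 1085 to 2518 in NE at 4 DAF, 393 to 2427 at 8 DAF and 378, 35.8 and 1115 in the libraries MM04, MM17 and MM18 of 16 DAF. It did not separate NE from CC, which read 896 and 312 at 4 DAF, 637 at 8 DAF and 292 and 886 at 16 DAF. The NE library MM17 of 16 DAF correlated with AL MM17 at r = 0.99 (log2 scale, over the tested genes). Pairs of replicates within a group gave 0.645 to 0.955. The NE and AL comparisons of 16 DAF are therefore also given without NE MM17, and so are the counts of members called in CC and EN. Group means and mean class shares of NE at 16 DAF include it. The 3 AL markers summed to 26087 in that library, against 11641 in NE MM04, 1768 in NE MM18 and 11194 to 29444 in AL. The lone OVT library of 16 DAF had OsMADS29 at 0 and summed values of 1149060 over the 7 EN markers and 49129 over the 3 AL markers, and the study's list of libraries marks it as excluded.

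Protease transcripts took their largest share of signal in maternal tissues and their smallest in EN. In NE all members together held 0.632 to 0.766% of a library's signal at 4 DAF and 0.694 to 1.04% at 8 DAF. At 16 DAF they held 1.52%, 0.431% and 2.10% in NE MM04, MM17 and MM18. The 3 NE libraries of 16 DAF therefore lay further apart than those of the earlier stages. OVT held 0.860 to 1.43% at 4 DAF and 2.54% and 0.703% in the 2 libraries of 8 DAF. EN held 0.295% in its library of 4 DAF, 0.0728 to 0.113% at 8 DAF and 0.0371 to 0.0584% at 16 DAF. Every EN library of 8 and 16 DAF lay below every library of the other tissues in this share. The total signal that a share is divided by differed between tissues. It was 15913200 and 26846500 in EN at 8 DAF and 50726300 and 39032000 at 16 DAF, against 4185520 to 9716720 in NE. A lower share is thus not by itself a lower summed value of the members. The 7 EN markers summed to 1473610 to 2132870 in EN at 8 DAF and 5202120 to 6278430 at 16 DAF, against 5912 to 422934 over all NE libraries. Their part in the low share was not tested.

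**Figure D1:**
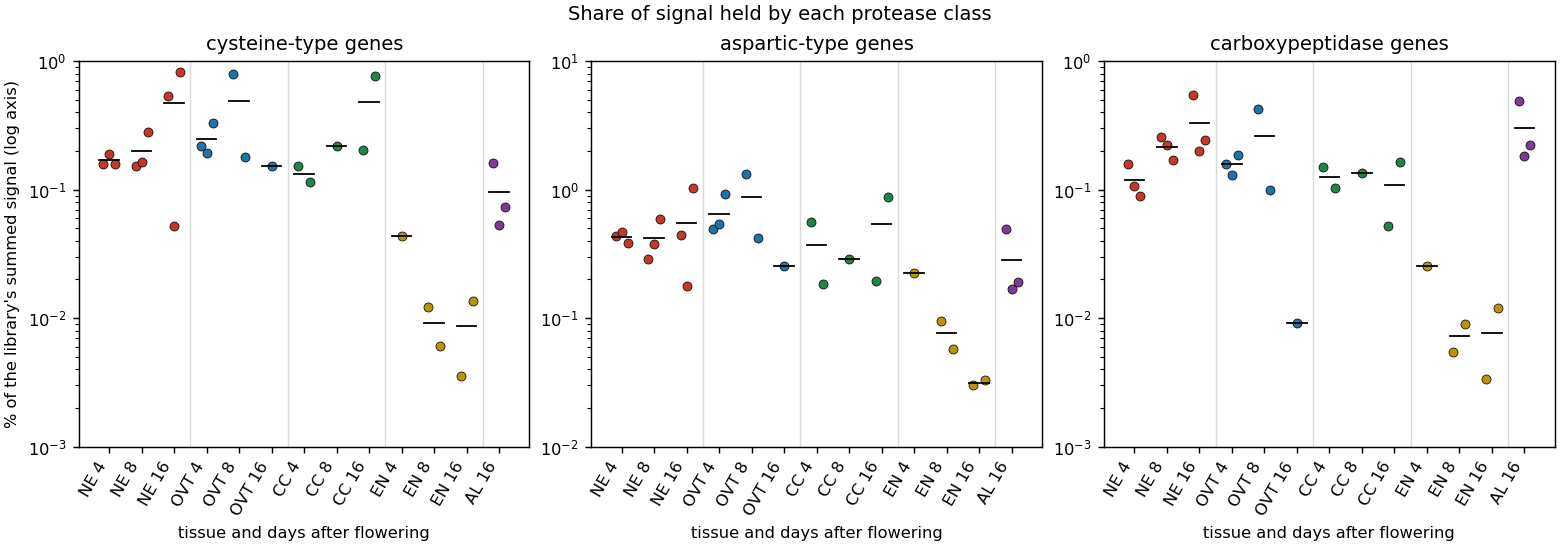
Share of each library's summed signal (%, log axis) held by the cysteine, aspartic and carboxypeptidase genes in the 13 groups, with 1 point per library and a bar at the group mean. EN lies lowest in all 3 panels at 8 and 16 DAF, apart from the carboxypeptidase share of 0.00917% in the lone OVT library of 16 DAF, and the cysteine share of NE at 16 DAF runs from 0.0525 to 0.824%.

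Within NE the mean of each class was highest at 16 DAF, the stage whose libraries lay furthest apart. The cysteine share of NE was 0.169 ± 0.018% (SD, n = 3) at 4 DAF, 0.198 ± 0.070% at 8 DAF and 0.471 ± 0.390% at 16 DAF. The carboxypeptidase share was 0.118 ± 0.035%, 0.216 ± 0.043% and 0.330 ± 0.186%. The carboxypeptidase share of every NE library of 8 and 16 DAF lay above that of every NE library of 4 DAF. The aspartic share was 0.429 ± 0.042%, 0.418 ± 0.154% and 0.551 ± 0.439%, and its libraries overlapped between all 3 stages.

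By group mean per kb, the aspartic and carboxypeptidase classes in NE were each led by 1 gene at all 3 stages, and the cysteine class by 2 genes in turn. Os11g0432900, a carboxypeptidase gene, made up 18.1% of the per-kb level of its class in NE at 4 DAF, 66.3% at 8 DAF and 76.9% at 16 DAF. At 4 DAF its mean was 657 per kb, against 540 for Os07g0479300, and this lead rested on the library that read 2062. In NE Os11g0432900 read 2062, 136 and 295 at 4 DAF and 10070, 4729 and 3474 at 8 DAF. The 3 libraries of 16 DAF read 31480, 14780 and 6235. Every NE library of 8 DAF lay above every NE library of 4 DAF, but the difference was not called (log2 fold change 3.61, SE 1.45, adjusted p = 0.358). The gene stood at 21770, 13880 and 14810 in AL and at 635 and 2276 in CC and 6.52 and 2477 in EN at 16 DAF. All NE libraries of 16 DAF lay above those of CC and EN, but the gene was not called (log2 fold change 4.85, SE 1.35, adjusted p = 0.0538). NE MM17, at 14780, lay within the range of AL. Without it the log2 fold change was 4.82 (SE 1.54, adjusted p = 0.0956). OVT held 25060 and 1363 at 8 DAF, so NE of that stage did not stand apart from OVT.

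Among the cysteine genes Os02g0469600 led NE at 4 and 8 DAF, with 970 and 2192 per kb. At 16 DAF Os08g0556900 led, with 9228 per kb against 4282 for Os02g0469600. Os08g0556900 read 73.7, 200 and 119 in NE at 4 DAF and 971, 102 and 1812 at 8 DAF. At 16 DAF it read 25680 in MM04 and 12610 in MM18 but 303 in MM17, the library that resembles AL. In CC it read 91.4 and 18.7 at 4 DAF, 1483 in the lone library of 8 DAF and 5805 and 15920 at 16 DAF. AL held 42.9 to 356 and EN 0 and 92.0 at 16 DAF. At that stage both CC libraries and the NE libraries MM04 and MM18 thus lay above all AL and EN libraries, and NE MM17 lay among those of AL. With all libraries the gene was not called in NE at 16 DAF against CC and EN (log2 fold change 3.07, SE 1.29, adjusted p = 0.205). Without NE MM17 it was higher (log2 fold change 5.02, SE 1.22, adjusted p = 0.0297), while the difference from NE of 8 DAF was not called (4.94, SE 1.29, adjusted p = 0.115).

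Os05g0567100, an aspartic protease gene whose terms also name lipid metabolism and the lysosome, led its class in NE at all 3 stages. It read 4354, 5198 and 4029 in NE at 4 DAF and 6331, 5621 and 12960 at 8 DAF. By 16 DAF its values were 20600, 10330 and 28940. The 3 NE libraries of 8 DAF lay above those of 4 DAF, and the difference between these stages was not called (log2 fold change 0.78, SE 0.65, adjusted p = 0.787). Its group mean per kb was at least 773 in every one of the 13 groups, and it was 2483, 4555 and 10947 in NE at 4, 8 and 16 DAF. In OVT it read 11440, 12970 and 28840 at 4 DAF, where it was higher than in NE and CC (log2 fold change 2.40, SE 0.58, adjusted p = 0.00785).

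**Figure D2:**
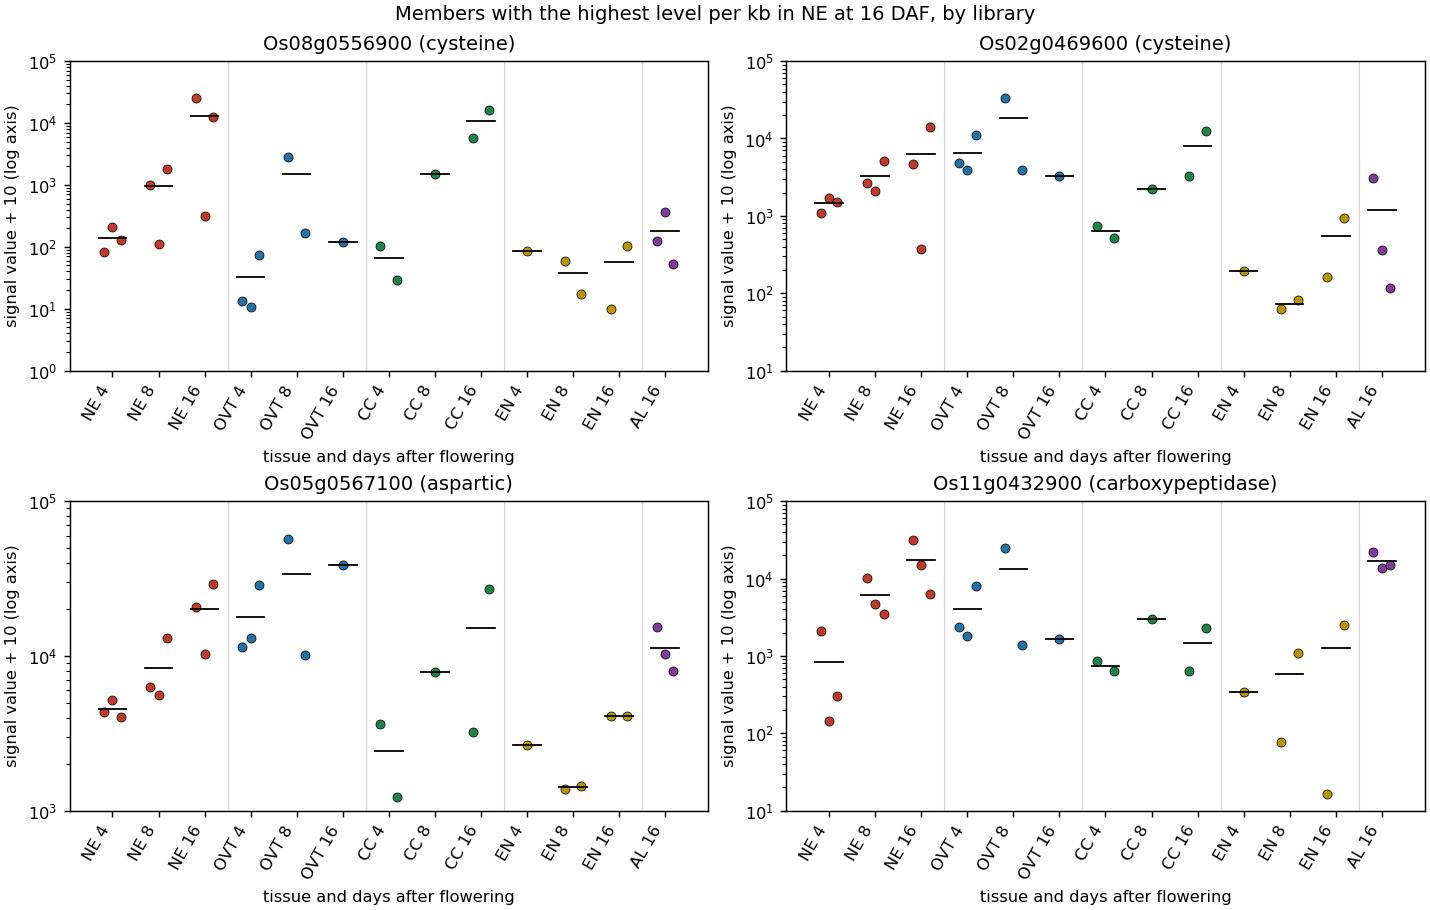
Signal value plus 10 (log axis) of the 4 genes that lead the 3 classes in NE, in 13 groups, with 1 point per library and a bar at the group mean. Os08g0556900 stands at 12610 and 25680 in 2 NE libraries of 16 DAF and at 303 in the third, and Os11g0432900 overlaps between AL (13880 to 21770) and NE of 16 DAF (6235 to 31480).

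At 4 DAF NE was compared with CC and OVT. Members higher in NE were 4 (3.08% of those tested) against 0.575% of all tested genes, and members lower were 2 (1.54%) against 1.15%. The higher genes were 2 aspartic and 2 carboxypeptidase genes, and the lower ones 2 carboxypeptidase genes. No cysteine gene was called by limma, 1 of the 36 had an unadjusted p under 0.05, and voom called no member of any class. Of all 27486 tested genes, 2971 had such a p, and voom called 32 higher and 12 lower. The median log2 fold change was -0.06 over the members and -0.02 over all genes.

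Os01g0598600, an aspartic protease gene, read 2054, 3174 and 3071 in NE at 4 DAF, 1466 and 543 in CC and 90.4, 123 and 86.7 in OVT. All NE libraries lay above all CC and OVT libraries (log2 fold change 3.12, SE 0.70, adjusted p = 0.0186). In the other 3 higher genes NE overlapped with CC. Os11g0213600, a carboxypeptidase gene, read 774, 440 and 489 in NE, 583 and 110 in CC and 0.822 to 35.3 in OVT (log2 fold change 2.79, SE 0.72, adjusted p = 0.0453). Os11g0461000, also a carboxypeptidase gene, read 63.0, 61.9 and 921 in NE, 22.4 and 82.5 in CC and 0, 0 and 9.64 in OVT (log2 fold change 2.70, SE 0.68, adjusted p = 0.0400). Os01g0844500, an aspartic gene, read 16.9, 133 and 71.1 in NE and 60.3 and 5.10 in CC and was at 0 in OVT, which puts NE at least 7.65-fold higher than OVT (log2 fold change against both 1.91, SE 0.46, adjusted p = 0.0287). In these bounds a value of 0 counts as 3 reads in the library of that group where 3 reads are worth most, and they cover counting error only. The 2 lower genes were expressed in OVT: Os04g0176400 read 59.2, 17.1 and 119 there and 0 in all NE libraries of 4 DAF (OVT at least 9.12-fold higher, adjusted p = 0.0480 for NE), and Os04g0525700 read 21.4, 24.9 and 16.1 against 0 (at least 2.91-fold, adjusted p = 0.0268 for NE). NE of 4 DAF also held CC transcripts. All 4 CC markers were above 0 in each of its libraries and summed to 1546 to 5800, against 15392 to 17078 in CC and 215 to 565 in OVT, and their part in these results was not tested.

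The count of 6 members fell to 1 without NE MM06 or without NE MM13, to 2 without CC MM13 and to 3 without NE MM05 or OVT MM05, and with voom on estimated reads no member was called. The call of Os01g0598600 was lost with voom, with a pseudocount of 1, and without CC MM13, NE MM06 or NE MM13. Of 17 alternatives, the other calls were lost in 5 (Os01g0844500), 7 (Os04g0525700), 9 (Os11g0461000), 10 (Os11g0213600) and 13 (Os04g0176400).

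At 8 DAF NE was compared with OVT and EN. Members higher in NE were 4 (3.08%) against 2.56% of all tested genes, a share near the background, and none was lower against 1.84%. At an unadjusted p under 0.05, 10 members were lower, and voom called 1 lower. Of all 27486 tested genes, 1689 were lower at that p, and voom called 451 lower. The higher members were 3 aspartic genes and 1 cysteine gene, and in each of them every NE library lay above every OVT and EN library. No carboxypeptidase gene was called by limma, and 6 of the 35 had an unadjusted p under 0.05, as had 4674 of all 27486 tested genes. Over the members the median log2 fold change was 0.05, and it was 0.08 over all genes.

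Os01g0140100, an aspartic gene, read 472, 949 and 1185 in NE at 8 DAF, 0 and 68.4 in OVT and 9.56 and 7.22 in EN (log2 fold change 5.18, SE 0.84, adjusted p = 0.000871). Os01g0598600 read 508, 1666 and 1075 in NE, 103 and 45.8 in OVT and 4.35 and 0 in EN (log2 fold change 4.99, SE 0.73, adjusted p = 0.000403). Both had high values in CC as well: the lone CC library of 8 DAF read 1645 and 1873, and CC of 16 DAF read 489 and 1322 for Os01g0140100 and 233 and 668 for Os01g0598600. For both genes every group mean of NE and CC lay above every group mean of OVT and EN. Their group means in NE were 1789 ± 162, 868 ± 363 and 1217 ± 1210 (SD, n = 3) for Os01g0140100 and 2766 ± 619, 1083 ± 579 and 539 ± 342 for Os01g0598600 at 4, 8 and 16 DAF. Neither gene was called between stages of NE. In OVT at 4 DAF both were lower than in NE and CC (log2 fold changes -4.37 and -3.85, SE 0.81 and 0.70, adjusted p = 0.000647 and 0.000542).

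Os07g0480900 was the cysteine gene that was higher in NE at 8 DAF. It read 344, 981 and 722 there, 41.1 and 11.9 in OVT and 9.56 and 14.4 in EN (log2 fold change 4.56, SE 1.05, adjusted p = 0.0133). The lone CC library of 8 DAF held 1036, above all NE libraries, and with that library in the comparison the call was lost, as it was with voom and without EN MM20, NE MM21 or NE MM22 (adjusted p = 0.334 at the highest). In NE it went from 140, 45.2 and 12.7 at 4 DAF to 3692, 2542 and 261 at 16 DAF, where AL held 1873, 2915 and 3935. The lone OVT library of 16 DAF held 5427. Os01g0777200, an aspartic gene, read 109, 256 and 137 in NE at 8 DAF against 16.4 and 33.9 in OVT and 2.61 and 7.22 in EN (log2 fold change 2.90, SE 0.77, adjusted p = 0.0302), and 98.8 to 145 in AL at 16 DAF. Its call was lost in 9 of 15 alternatives: a pseudocount of 1, upper-quartile factors, voom, the MM numbers as a block, and without EN MM20, EN MM22, NE MM21, NE MM22 or OVT MM21. The 3 AL markers summed to 2962 to 14126 in NE at 8 DAF, against 123 to 933 in OVT and 245 to 249 in EN, and their part in these results was not tested.

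**Figure D3:**
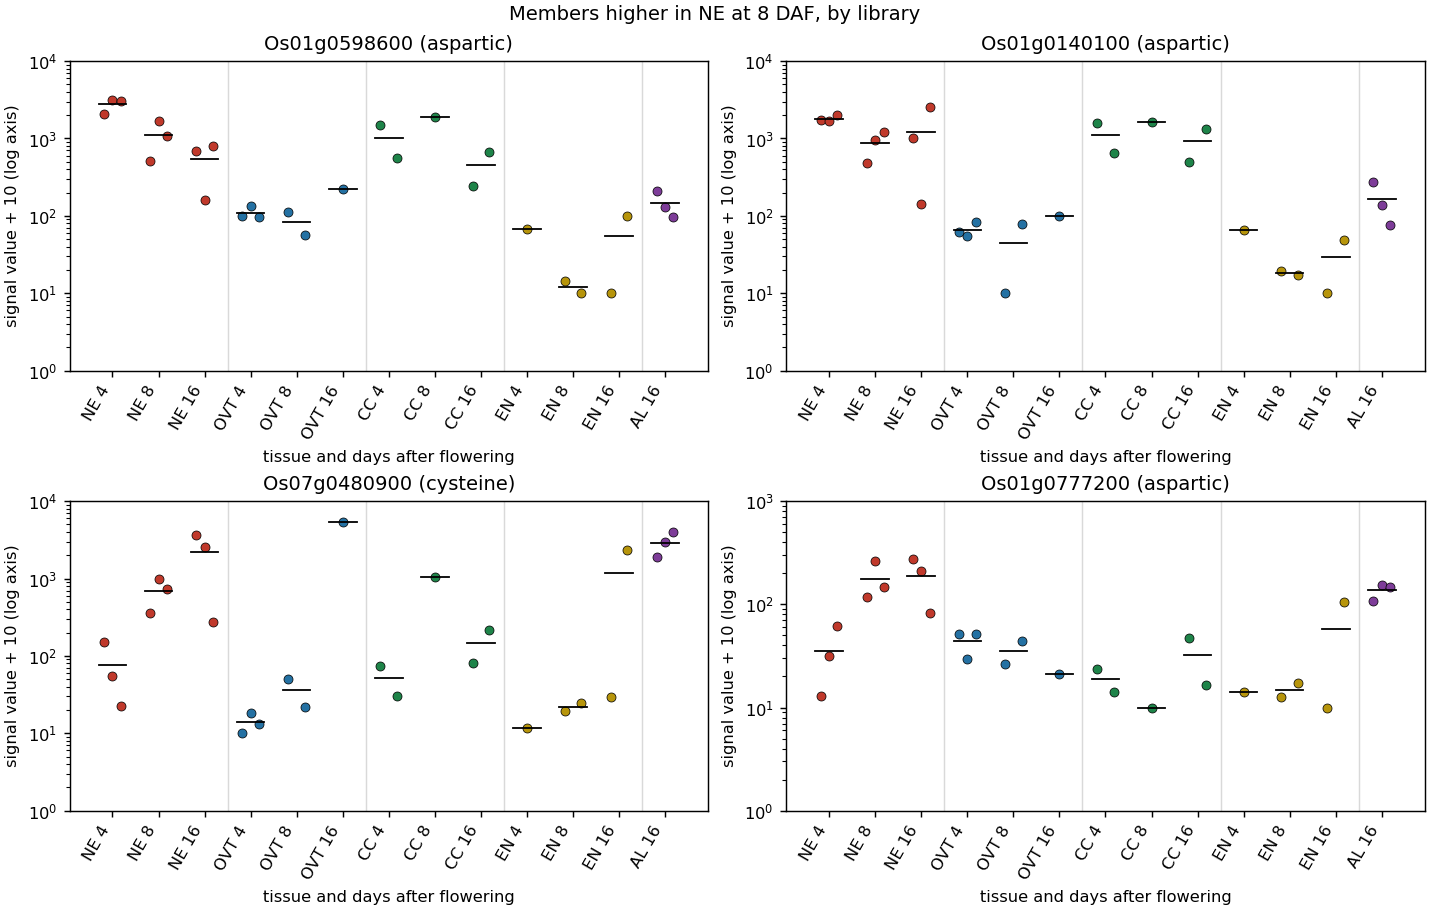
Signal value plus 10 (log axis) of the 4 genes that were higher in NE at 8 DAF than in OVT and EN, in 13 groups, with 1 point per library and a bar at the group mean. Os01g0598600 and Os01g0140100 have higher group means in NE and CC than in OVT and EN, and Os07g0480900 (1873 to 3935) and Os01g0777200 (98.8 to 145) are also present in AL.

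The count of 4 members at 8 DAF, all higher, was 15 without OVT MM22, of which 10 were lower and 5 higher. It was 10 without NE MM20 (8 higher and 2 lower), 7 without OVT MM21 (5 and 2), and 2, both higher, without EN MM20, NE MM21 or NE MM22. Os01g0598600 kept its call under all 15 alternatives, and Os01g0140100 lost it with voom only (adjusted p = 0.0806, against 0.000154 at the lowest of its alternatives).

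At 16 DAF NE was compared with CC and EN. None of the 130 members was higher, against 2.3% of all tested genes. At an unadjusted p under 0.05, 16 members were higher, and voom called 8 higher. Of all 27486 tested genes, 3060 were higher at that p, and voom called 1492 higher. The member that was lower (1.15% of all tested genes were lower) was Os01g0679500, an aspartic gene detected mostly in EN: 32.6 and 46.0 in EN at 16 DAF against 0, 4.03 and 0 in NE, with both CC libraries at 0 (log2 fold change of NE -0.98, SE 0.21, adjusted p = 0.0141). EN lay at least 4.08-fold above CC. The median log2 fold change was 0.01 over the members and 0.03 over all genes.

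Without NE MM17, the library that resembles AL, 6 members were called in NE at 16 DAF, 5 of them higher, while 458 of 27486 genes were higher and 305 lower. Besides Os08g0556900 these were the cysteine genes Os04g0650000 (log2 fold change 3.69, SE 0.94, adjusted p = 0.0361) and Os04g0670200 (4.48, SE 0.92, adjusted p = 0.0144), the aspartic gene Os01g0140100 (3.58, SE 0.82, adjusted p = 0.0235) and the carboxypeptidase gene Os06g0186400 (3.79, SE 0.89, adjusted p = 0.0254). Os04g0670200 read 2427, 130 and 2538 in NE MM04, MM17 and MM18, 747 and 2070 in CC, 129 to 376 in AL and 0 in EN. Os04g0650000 read 1407, 28.7 and 1962 in NE, 1127 and 2452 in CC, 13.4 to 255 in AL and 0 in EN. In both genes NE MM17 lay within the range of AL. Each of the 5 read at most 92.0 in EN and overlapped between NE and CC. The count at 16 DAF was 9 without NE MM18, 8 without EN MM18, 4 without CC MM18 and 0 without NE MM04.

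Between the stages of NE few members moved. From 4 to 8 DAF no member rose (0.109% of all tested genes did), while 8 had an unadjusted p under 0.05 with a higher value, and voom called none higher. Over all 27486 tested genes the same counts were 1024 at that p and 9 with voom. Members that fell were 2 (1.54%) against 0.397% of all tested genes. Os01g0844500 read 16.9, 133 and 71.1 at 4 DAF and 0.521, 1.25 and 0 at 8 DAF (log2 fold change -2.68, SE 0.51, adjusted p = 0.0112), and it was at 0 in NE at 16 DAF. Os11g0461000 read 63.0, 61.9 and 921 at 4 DAF and 6.26, 8.14 and 7.76 at 8 DAF (log2 fold change -3.29, SE 0.76, adjusted p = 0.0447). In both, the stages did not overlap. Neither call held without NE MM20 or without NE MM22 of 8 DAF, which left 0 members called, and 1 was called without NE MM13 of 4 DAF. Os11g0213600 had 774, 440 and 489 at 4 DAF and 21.4, 125 and 40.1 at 8 DAF, with no call. Its NE libraries of 16 DAF held 0, 0 and 0.132. From 4 to 8 DAF the members' median log2 fold change was -0.11, against -0.05 over all genes.

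From 8 to 16 DAF no member was called in either direction by limma, while 0.0873% of all tested genes rose and 0.109% fell. At an unadjusted p under 0.05, 9 members were higher and 11 lower, and voom called 2 lower. Of all 27486 tested genes, 1359 were higher and 1464 lower at that p, and voom called 315 lower. The median log2 fold change was -0.0012 over the members and 0.00 over all genes. Without NE MM17 a cysteine gene, Os02g0715000, rose in NE (log2 fold change 4.37, SE 0.89, adjusted p = 0.0325), while 52 of 27486 genes rose and 22 fell. It read 0, 0 and 1.94 in NE at 8 DAF and 536, 0 and 78.7 in MM04, MM17 and MM18 of 16 DAF. The count was 2 without NE MM18 of 16 DAF and 1 without NE MM20 of 8 DAF.

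More members were higher in OVT than in any other tissue compared. At 4 DAF, 12 members (9.23%) were higher than in NE and CC against 5.28% of all tested genes, and 14 (10.8%) were lower against 5.57%. By class, 1 cysteine, 7 aspartic and 4 carboxypeptidase genes were higher and 3, 7 and 4 were lower. Their median log2 fold change in OVT at 4 DAF, over all 130 tested, was 0.05, against -0.19 over all genes. At 8 DAF, 18 members (13.8%) were higher than in NE and EN against 6.59% of all tested genes, and 2 (1.54%) were lower against 3.63%. These were 6 cysteine, 9 aspartic and 3 carboxypeptidase genes higher and 2 aspartic genes lower, with a median of 0.02 over the members and -0.13 over all genes.

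Os01g0290000, an aspartic gene, read 5154, 3857 and 17300 in OVT at 4 DAF against 323 to 1746 in NE and 435 and 1097 in CC (log2 fold change 3.33, SE 0.75, adjusted p = 0.00440). At 8 DAF it read 37500 and 2935 against 109 to 493 in NE and 26.1 and 65.0 in EN (log2 fold change 6.48, SE 0.86, adjusted p = 1.58e-05). Both OVT libraries lay above all NE and EN libraries of that stage, and they also lay far apart from each other. Their headers mark MM21 as high and MM22 as mid, and the part of this mark was not tested. The lone OVT library of 16 DAF read 667. Os07g0479300, a carboxypeptidase gene, had close replicates, with 3643, 3085 and 3852 in OVT at 4 DAF against 459 to 544 in NE and 467 and 611 in CC (log2 fold change 2.75, SE 0.63, adjusted p = 0.00510). It read 7863 and 2137 at 8 DAF against 145 to 424 in NE and 28.7 and 57.7 in EN (log2 fold change 5.06, SE 0.73, adjusted p = 4.08e-05). Os09g0442300, a cysteine gene, read 1826, 1108 and 1362 in OVT at 4 DAF, 31.8 to 168 in NE and 51.0 and 110 in CC (log2 fold change 3.87, SE 0.91, adjusted p = 0.00582). Os09g0542100, an aspartic gene, read 153, 29.5 and 800 in OVT at 4 DAF and at most 7.68 in NE and CC (log2 fold change 3.69, SE 0.67, adjusted p = 0.000546).

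Os04g0650000, a cysteine gene, read 19990 and 897 in OVT at 8 DAF against 206 to 235 in NE and 10.4 and 0 in EN (log2 fold change 6.20, SE 1.18, adjusted p = 0.00107). Os05g0137400, an aspartic gene, read 41560 and 1909 in OVT against 178, 267 and 2736 in NE and 37.4 and 14.4 in EN, so its groups overlapped (log2 fold change 6.07, SE 1.29, adjusted p = 0.00316). Os06g0487900, a cysteine gene, read 41860 and 2757 in OVT at 8 DAF against 305 to 1459 in NE and 513 and 369 in EN (log2 fold change 4.22, SE 0.91, adjusted p = 0.00367). None of its values under 100 reads was a whole read number within 0.03 read, so its reads may be shared with another gene and its level is uncertain. Os11g0255300 was counted as higher at 8 DAF although its 2 OVT libraries read 0 and 140, and without OVT MM22 its sign turned (log2 fold change -0.17). Os09g0482200 and Os09g0482500, both counted as higher at 8 DAF, hold the same value in every library and stand for 1 measurement. The OVT count of 20 at 8 DAF was 32 without OVT MM22, 8 without OVT MM21 and 5 with voom.

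Within the cysteine class, the genes that also carry an endopeptidase term are given apart from those that do not, with no test of the difference. Of the 15 tested with the term, 5 were higher in OVT at 8 DAF, with a median log2 fold change of 1.78, and 5 were lower in EN at 8 DAF, with a median of -2.74. Of the 21 tested without it, 1 was higher in OVT and none was lower in EN, with medians of -0.56 and -0.13. At an unadjusted p under 0.05, 2 of these 21 were lower in EN, and voom called no member lower there. Over all tested genes 6.59% were higher in OVT at 8 DAF, with a median of -0.13. In EN at 8 DAF 4.65% of all tested genes were lower, with a median of -0.10. In EN at 16 DAF, 4 of the 15 (26.7%) and 3 of the 21 (14.3%) were lower, with medians of -1.08 and -0.24. Over all tested genes 8.33% were lower there, with a median of -0.35. At 4 DAF 3 of the 21 (14.3%) were lower in OVT, against 5.57% of all tested genes, namely Os01g0113000, Os06g0122600 and Os06g0122800. Their 3 OVT libraries lay below all NE and CC libraries, with 0 to 1.10, 0 to 5.62 and 0 to 36.9. Few of their low values were whole reads (9.09% to 20%), so their levels are uncertain as well.

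**Figure D4:**
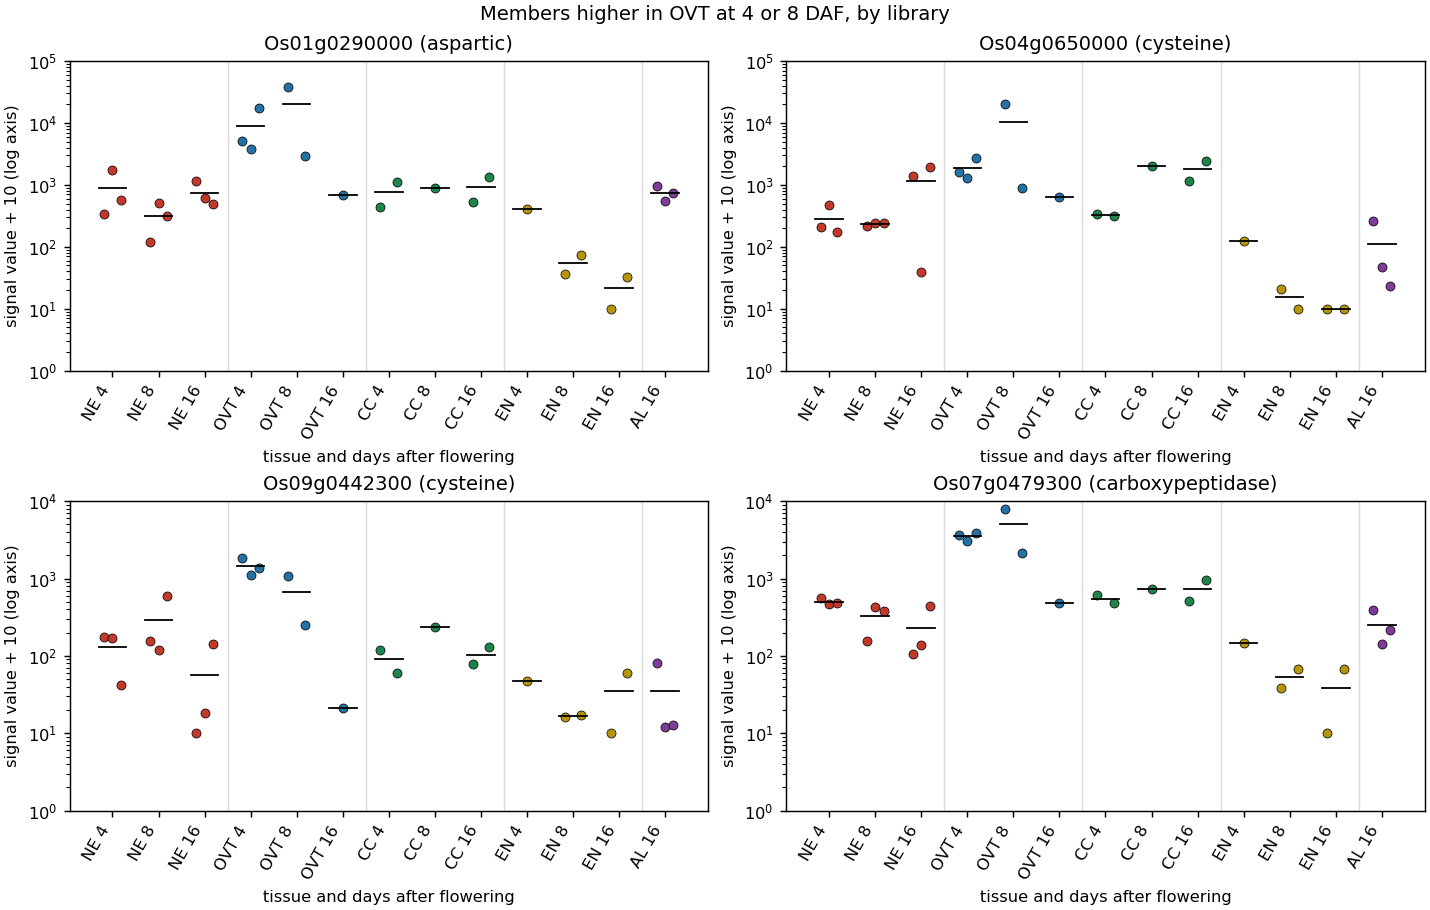
Signal value plus 10 (log axis) of 4 genes that were higher in OVT, in 13 groups, with 1 point per library and a bar at the group mean. The 3 OVT libraries of 4 DAF lie above all NE and CC libraries of that stage for Os01g0290000 (3857 to 17300), Os09g0442300 (1108 to 1826) and Os07g0479300 (3085 to 3852), and the 2 OVT libraries of 8 DAF lie far apart for Os04g0650000 (897 and 19990).

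CC was compared with NE and OVT at 4 DAF. Members higher were 5 (3.85%) against 2.31% of all tested genes, 4 aspartic and 1 carboxypeptidase gene, and the 1 that was lower (0.769%) met 0.779% of all genes. In CC the members' median log2 fold change was 0.00, against 0.13 over all genes. Os02g0634700, the carboxypeptidase gene, read 1714 and 915 in CC, 27.6, 304 and 65.8 in NE and 12.8 to 64.1 in OVT (log2 fold change 4.33, SE 0.89, adjusted p = 0.00475). It was also higher in CC at 16 DAF, with 142 and 141 against 0, 0 and 8.47 in NE and 4.89 and 0 in EN (log2 fold change 3.63, SE 0.92, adjusted p = 0.0218). Os04g0330900, an aspartic gene, read 139 and 126 in CC at 4 DAF, 0, 0 and 19.1 in NE and 0 in OVT, at least 13.7-fold higher than OVT (adjusted p = 8.87e-05). Os03g0186900, another aspartic gene, read 565 and 122 in CC, 6.14, 202 and 10.6 in NE and 827 in the lone CC library of 8 DAF (log2 fold change 3.40, SE 0.71, adjusted p = 0.00538). The count of 6 was 2 without CC MM05 and 3 with voom, and 9 without OVT MM06. CC MM05 has conflicting day labels.

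At 16 DAF, 10 members (7.69%) were higher in CC than in NE and EN against 4.03% of all tested genes, and 1 (0.769%) was lower against 1.44%. The higher ones were 3 cysteine, 3 aspartic and 4 carboxypeptidase genes, with a median log2 fold change of 0.20 over the members and 0.05 over all genes. Os04g0650000 (log2 fold change 4.60, SE 1.18, adjusted p = 0.0234), Os06g0186400 (3.70, SE 1.08, adjusted p = 0.0449) and Os04g0670200 (3.68, SE 1.05, adjusted p = 0.0408) were among them. In all 3 CC overlapped with NE and EN was at 0, so CC did not stand apart from NE. The group mean of Os04g0670200 was 1698 in NE, above the 1408 of CC. These 3 calls were lost in 5, 9 and 10 of 15 alternatives, and those of Os06g0186400 and Os04g0670200 also without NE MM17. In Os07g0479300 both CC libraries lay above all NE and EN libraries, with 506 and 950 against 96.7 to 430 in NE (log2 fold change 3.34, SE 0.73, adjusted p = 0.00782). The count of 11 was 3 without CC MM18, 7 without NE MM17 and 4 with voom.

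EN had the most members lower. At 8 DAF, 15 (11.5%) were lower than in NE and OVT against 4.65% of all tested genes, and 5 (3.85%) were higher against 4.09%. The lower ones were 5 cysteine, 7 aspartic and 3 carboxypeptidase genes, and all 5 higher ones were aspartic. At 16 DAF, 19 (14.6%) were lower than in NE and CC against 8.33% of all tested genes, and 3 (2.31%) were higher against 5.14%. They were 7 cysteine, 8 aspartic and 4 carboxypeptidase genes lower, and 2 aspartic and 1 carboxypeptidase gene higher. Without NE MM17 the members called at 16 DAF were 3 higher and 21 lower. The counts over all genes are not given for that setting, so these numbers have no background beside them. In EN the median log2 fold change was -0.36 over the members and -0.10 over all genes at 8 DAF, and -0.42 and -0.35 at 16 DAF, where 29 members had 1 side at 0. With such genes set at their bounds, the medians of members and of all genes were -0.35 and -0.10 at 8 DAF and -0.35 and -0.31 at 16 DAF.

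Os02g0469600, a cysteine gene, read 53.0 and 72.2 in EN at 8 DAF against 2074 to 5029 in NE and 33180 and 3932 in OVT (log2 fold change -6.36, SE 1.12, adjusted p = 0.000945). Os04g0670200 was at 0 in both EN libraries of 16 DAF, which puts NE at least 148-fold higher and CC at least 122-fold (adjusted p = 0.000155). Os08g0556900 read 0 and 92.0 in EN at 16 DAF (log2 fold change -7.71, SE 1.42, adjusted p = 0.000779). Os10g0101200 and Os02g0114200, carboxypeptidase genes, were also lower in EN at 16 DAF, with 0 and 11.5 for the first and 0 in both libraries for the second, against 94.1 to 5291 and 123 to 2468 in NE.

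Of the 5 aspartic genes higher in EN at 8 DAF, 4 are described. Os02g0198600 read 2067 and 2562 in EN at 8 DAF, 298 to 544 in NE and 32.9 and 271 in OVT (log2 fold change 3.40, SE 0.63, adjusted p = 0.00140), and it read 1768 in the lone EN library of 4 DAF. Os02g0117400 read 1438 and 1165 in EN at 8 DAF, 352 to 544 in NE and 98.5 and 169 in OVT (log2 fold change 2.35, SE 0.70, adjusted p = 0.0351). Os12g0153700 read 130 and 166 in EN at 8 DAF, while NE held at most 12.8 and OVT 0 (log2 fold change 3.59, SE 0.99, adjusted p = 0.0239). Os05g0436400 read 1590 and 1757 in EN at 8 DAF, 146 to 609 in NE and 212 and 936 in OVT (log2 fold change 2.23, SE 0.62, adjusted p = 0.0257), and 28780 in the lone OVT library of 16 DAF. Os11g0183900 read 2430 and 982 in EN at 16 DAF, 167 to 334 in NE and 813 and 250 in CC (log2 fold change 2.25, SE 0.61, adjusted p = 0.0154). The carboxypeptidase gene Os05g0268500 read 666 and 2091 in EN at 16 DAF against 3.09, 321 and 9.43 in NE, 254 and 22.5 in CC and 8.39, 317 and 199 in AL (log2 fold change 4.23, SE 1.31, adjusted p = 0.0330). Only 29.4% of its low values were whole reads. The EN count of 20 at 8 DAF (5 higher and 15 lower) was 4, all lower, when EN MM22 was left out, 6 (1 and 5) when EN MM20 was, 12 (2 and 10) when NE MM22 was and 34 (5 and 29) when OVT MM22 was. With voom it was 2, both higher, so the 15 lower calls were all lost, while 593 of 27486 genes were higher and 117 lower. The count of 22 at 16 DAF (3 higher and 19 lower) was 10 without EN MM17 (1 and 9), 14 without CC MM18 (2 and 12) and 14 with voom (3 and 11).

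AL at 16 DAF had no member called by limma against NE, CC and EN, while 0.837% of all tested genes were higher and 0.258% lower. At an unadjusted p under 0.05, 9 members were higher and 5 lower, and voom called 4 higher and 6 lower. Of all 27486 tested genes, 2489 were higher and 1235 lower at that p, and voom called 1939 higher and 1126 lower. The median log2 fold change was -0.03 over the members and 0.03 over all genes. Without NE MM17, 3 members were called, while 539 of 27486 genes were higher and 228 lower: Os01g0937100, an aspartic gene, was higher (145, 367 and 427 in AL, 197 and 8.07 in NE MM04 and MM18, adjusted p = 0.0431), and the cysteine genes Os02g0715000 and Os08g0556900 were lower (log2 fold changes -2.53 and -3.73, adjusted p = 0.0471 and 0.0443). In Os01g0937100 AL thus overlapped with NE, and its values in CC and EN are not given here. The count was 3 without EN MM18 and 1 without EN MM17.

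**Figure D5:**
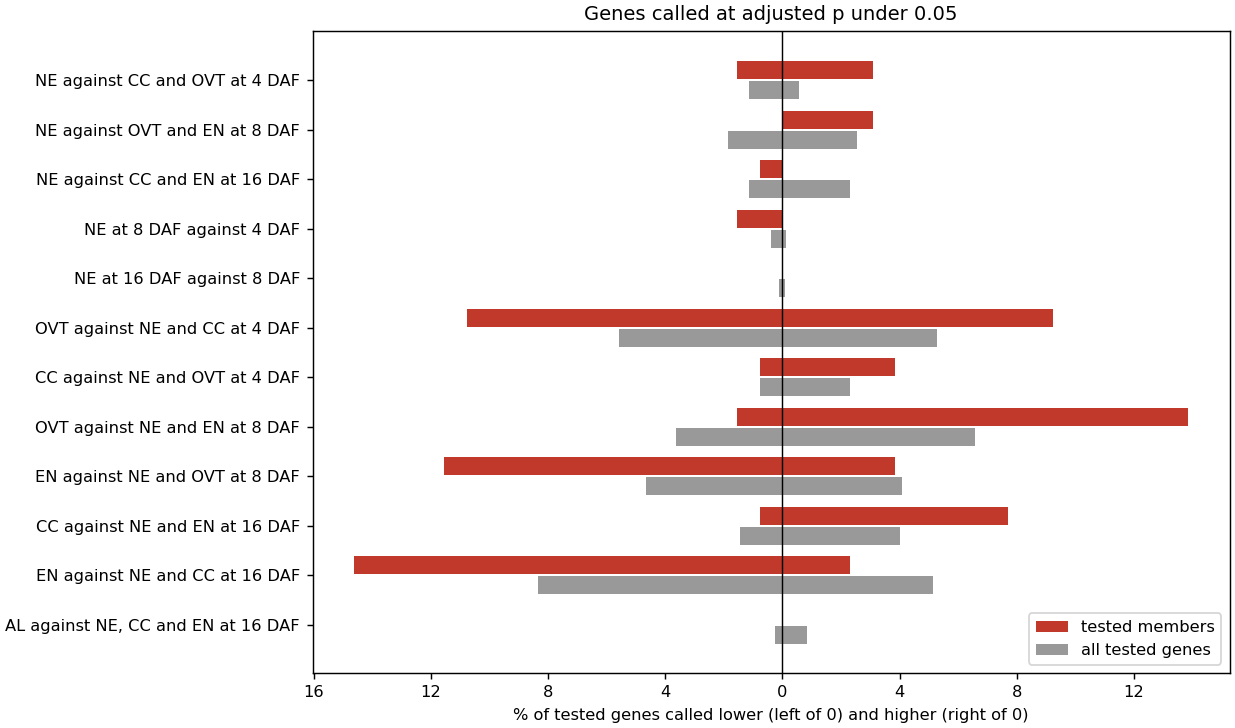
Percentage of the 130 tested members (red) and of all 27486 tested genes (grey) called lower (left of 0) and higher (right of 0) in 12 comparisons. The members' share runs highest for OVT at 8 DAF (13.8% higher) and EN at 16 DAF (14.6% lower), and no member was called in NE from 8 to 16 DAF or in AL.

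The split of higher against lower calls over all genes depended on the scaling. With upper-quartile factors the share of called genes that were higher was 64.1% in place of 38.2% in EN at 16 DAF, 65.0% in place of 46.8% in EN at 8 DAF, 49.3% in place of 73.7% in CC at 16 DAF, 58.5% in place of 76.4% in AL, 46.5% in place of 66.6% in NE at 16 DAF and 42.4% in place of 58.1% in NE at 8 DAF. Among the members the same factors gave 6 higher and 18 lower in EN at 16 DAF and 6 and 12 at 8 DAF. All 86 calls of named genes kept their direction with upper-quartile and with median-of-ratios factors.

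Some members were described whether or not they changed. Os11g0184800, an aspartic gene, read 8788 and 1.70 in the 2 CC libraries of 4 DAF, 1461, 949 and 5.31 in NE of 4 DAF, 15.6, 2.33 and 1645 in OVT and 3187 in the lone EN library. It was high or near 0 within each replicated group of that stage and was not called. Os05g0158500, a carboxypeptidase gene, read 86.0, 11.9 and 61.6 in NE and 92.4 and 74.0 in CC at 4 DAF and 23.8, 0 and 0 in OVT, where it was lower (log2 fold change -2.23, SE 0.52, adjusted p = 0.00550). Os04g0448500 had a value above 0 in only 2 libraries, at most 0.869, and was not tested.

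Related genes outside the 3 classes were counted by their own GO terms, beside the share of all tested genes called in the same direction. Of 9 tested cysteine protease inhibitors, 2 (22.2%) were higher in OVT at 4 DAF (5.28% of all genes) and 2 at 8 DAF (6.59%), with median log2 fold changes of 0.54 and 0.66, and 3 (33.3%) were lower in EN at 8 DAF (4.65%; median -0.58). Of 73 serine-type endopeptidases, 4 (5.48%) were higher in NE at 8 DAF (2.56%), and in EN at 16 DAF 9 (12.3%) were lower (8.33%) and 5 (6.85%) higher (5.14%). Of 42 metalloendopeptidases, 8 (19.0%) were lower in EN at 16 DAF (8.33%), and 4 (9.52%) were higher in CC at 16 DAF (4.03%). Of 23 threonine-type endopeptidases, 2 (8.70%) were higher in EN at 8 DAF (4.09%) and 2 were lower at 16 DAF (8.33%). Of 22 serine protease inhibitors, 5 (22.7%) were higher in EN at 8 DAF (4.09%) and 5 at 16 DAF (5.14%). The lists are small, and these shares are given as a description.

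Cysteine endopeptidase genes that lack the peptidase term were not members. Os02g0644000 read 552, 57.1 and 200 in NE at 4 DAF and 1857, 2139 and 1890 at 8 DAF, so that these stages did not overlap. At 16 DAF it read 22070, 14490 and 2218 in NE, and 11460, 13360 and 13520 in AL. Os04g0537900 was detected in every group, with 208 to 10450 over the libraries. Os01g0559600 was higher in OVT at 8 DAF, with 8355 and 615 against 458 to 898 in NE and 37.4 and 0 in EN (log2 fold change 4.33, SE 1.17, adjusted p = 0.0187). Os05g0593900 read at most 215 in any library, and Os06g0105100 was at 0 in all 28.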

How the data were processed

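RNA of laser-captured tissue was amplified by PCR and sequenced single-end. The authors aligned reads to IRGSP-1.0 with STAR and deposited a signal per gene. The submitters' processing notes also name edgeR, and versions and annotation release are not given in the sources used here. The deposited signal was not whole counts: low values were whole reads within 0.03 read in 86.5 to 95.7% of cases per library, so no count model was fitted, although one had been planned as an alternative. Depth was estimated from the value of 1 read, and reads are PCR copies, so floors of 3 reads cover counting error only. A column that matched no sample (1 in all) was not used. CC MM05 carries 8 DAF as its day and 4 DAF in its title, and was taken as 4 DAF.

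Genes with a value over 10 and at least 10 estimated reads in the same library were tested with limma 3.58.1 (R 4.3.3) on log2(value + 10), with 1 mean per group, a trend and robust variances, and Benjamini-Hochberg adjustment. Each group was compared with the equal-weight mean of the other replicated groups of its stage. The methods call the libraries biological replicates, and whether they came from separate plants is not given, so p-values measure the spread between these samples. The code was tested on simulated data. Alternatives were other scaling factors, pseudocounts of 1 and 30, no filter, voom, the MM number as a block, the title prefix as a covariate, the lone libraries added, and each library left out.

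The members and lists were chosen with earlier results of these data known. Genes were named by rule: the 4 highest per kb in each class, up to 4 called in each direction in the NE comparisons, up to 3 higher and 2 lower in the others, and 14 fixed by identifier. Os01g0113000, Os06g0122600, Os06g0122800, Os09g0482200, Os09g0482500, Os11g0255300, Os02g0715000 and Os01g0937100 were named after their values were seen. A planned split of the cysteine class into papain-like and other genes needed descriptions that were not used here, and the endopeptidase term took its place. Of the 234 members, 0 matched the reference gene table, so no names or sequences are given.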

Additional observations from a re-analysis of the deposited data

How the results depend on the processing

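Leaving out 1 library in turn gave 1 to 8 members called for NE at 4 DAF (6 with all libraries), 2 to 15 for NE at 8 DAF (4), 0 to 9 for NE at 16 DAF (1), 0 to 3 for NE from 4 to 8 DAF (2), 0 to 2 from 8 to 16 DAF (0), 22 to 28 for OVT at 4 DAF (26), 8 to 32 for OVT at 8 DAF (20), 2 to 9 for CC at 4 DAF (6), 3 to 14 for CC at 16 DAF (11), 4 to 34 for EN at 8 DAF (20), 10 to 27 for EN at 16 DAF (22) and 0 to 3 for AL (0). With voom the counts were 0, 2 and 12 for NE at 4, 8 and 16 DAF, 1 from 4 to 8 DAF, 2 from 8 to 16 DAF, 5 for OVT at 8 DAF, 3 and 4 for CC at 4 and 16 DAF, 2 and 14 for EN at 8 and 16 DAF and 10 for AL. Over all tested genes voom called 1492 higher and 1147 lower for NE at 16 DAF, and 1939 and 1126 for AL. A pseudocount of 1 gave 3 for NE at 4 DAF, 4 for NE at 16 DAF, 1 for NE from 4 to 8 DAF and 3 for CC at 4 DAF, and one of 30 gave 2 for NE at 16 DAF, 7 for CC at 16 DAF and 1 for AL. With no filter, 1 member was called for NE from 4 to 8 DAF, 6 for CC at 16 DAF and 1 for AL. Upper-quartile factors gave 2 for NE at 16 DAF, 1 for NE from 4 to 8 DAF, 7 for CC at 16 DAF and 1 for AL. Adding the lone libraries gave 3 for NE at 4 DAF, 8 for NE at 16 DAF and 2 for AL, and the title prefix gave 1 for NE from 4 to 8 DAF. The MM number as a block gave 2 for NE at 4 DAF, 0 for NE at 16 DAF, 0 for NE from 4 to 8 DAF, 11 for OVT at 8 DAF and 7 for EN at 8 DAF. No MM number occurs at more than 1 stage, so between stages the block cannot be set apart from the stage. With it 0 of all tested genes were called from 4 to 8 DAF, so the 0 members there say nothing about the members. Over the 25 pairs of libraries with the same number, deviations from the group means correlated at -0.19 to 0.46, and 6 were over 0.1, among them the 4 of NE with CC (0.105 to 0.209), while those of NE with OVT and with EN were all under 0.1, so the numbers were not taken as pairs. The causes of these shifts were not tested. The remaining alternatives moved no count by more than 1.5 times, and OVT at 4 DAF moved under none.

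Of 118 calls of single genes, 25 held under every alternative run. Over 1844 gene-by-alternative results the call was kept in 1428 and lost in 415, and 1 turned in sign: Os11g0255300 in OVT at 8 DAF, at -0.17 without OVT MM22 and 3.73 without OVT MM21 (1.78 with both). Of the 39 class shares per group, 25 moved by less than 1 SD when computed per kb of gene length, and of the other 14, 9 came from lone libraries with no SD. The planned edgeR alternative was not run, because the values are not whole reads for nearly all genes. The shallowest library in the 12 comparisons, CC MM18 of 16 DAF, held an estimated 1578025 reads.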

Other observations

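The group in which each tested gene had its highest mean is a further description of where the members stood. Of the 130 tested members, 22 had it in OVT at 4 DAF, 26 in OVT at 8 DAF and 10 in the lone OVT library of 16 DAF, and of all 27486 tested genes 3091, 2808 and 2871 did. NE held the highest mean of 12, 6 and 9 members at 4, 8 and 16 DAF and of 1749, 1114 and 1588 genes. CC held that of 9, 11 and 9 members and 2108, 3416 and 2038 genes, EN that of 6, 3 and 5 members and 2421, 790 and 2534 genes, and AL that of 2 members and 958 genes. The groups of 1 library have no spread, and with 13 groups of unequal size a highest mean carries no test.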
